A study of Mus musculus with 6 samples.

Results

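Endothelial identity genes are the genes by which the lining cells of blood vessels are recognised. They were followed here by RNA sequencing in cultures of mouse aorta labelled as vascular smooth muscle, the tissue that contracts the vessel. The 10 genes were looked up by symbol: Kdr, Flt1, Cdh5, Cldn5, Emcn, Cd93, Plvap, Ecscr, Sox17 and Sox18. All 10 were found, each as a single row, among the 7384 genes of the deposited tables. The 3 libraries called siSirt6 came from cells given a small interfering RNA against Sirt6 for 48 h, and the 3 libraries called Control from control cultures. SIRT6 is a nuclear sirtuin that removes acyl groups from histones. The sources used here do not give the strain, age or sex of the mice, or what the control cultures received. Nothing says that the 3 libraries of a group came from separate animals or cultures, so their spread may be technical.

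Endothelial cells are held together by VE-cadherin at adherens junctions and by claudins at tight junctions, and they sense vascular endothelial growth factor (VEGF) through the receptor tyrosine kinases VEGFR2 and VEGFR1. Their identity is set in the embryo by transcription factors of the ETS and SOXF families. Smooth muscle cells lie beneath them in the aorta, so a culture grown from aorta can carry some endothelial cells along.

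In every siSirt6 library, each of the 10 genes was higher than in every Control library. The group means differed between 1.28-fold for Flt1 and 5.98-fold for Cldn5, and 7 of the 10 genes were at least 2-fold higher. The members were selected on their higher values in siSirt6 in this same comparison, so these values are a description and no p-value is attached to them. The tables themselves hold almost only genes that differ. Of 7179 genes with enough signal to be tested, 99.8% passed the limma test of siSirt6 against Control in some direction, with 50.5% higher in siSirt6 and 49.3% lower. Groups that do not overlap, with siSirt6 above Control, were found for 49.0% of these genes, and a mean at least 2-fold higher for 4.21%. Nothing is read from the members' own counts against these shares, since the choice of members used the same values. In a bulk culture, more endothelial cells and more RNA per cell cannot be told apart.

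The targeted gene, Sirt6, lay between 251.7 and 270.4 normalised reads in the Control libraries and between 44.5 and 63.5 in the siSirt6 libraries, a ratio of 0.215 (limma adjusted p = 1.16e-15). The listed genes took between 14458847 and 15526399 reads per library. Of 16 smooth muscle markers, 12 were in the tables. Their Control means ran from 178.7 for Tagln to 58253 for Acta2, smooth muscle actin, with Cald1 at 13553.

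The stretches of DNA just before the start of 4 members are given because the 10 genes were higher together, and because Kdr and Flt1, sister VEGF receptors on chromosome 5, differed in the size of their change. RefSeq's promoter table for GRCm38.p6, the build also called mm10, had an entry for Kdr, Flt1, Cldn5 and Emcn, 4 of the 10. Each sequence runs 5′ to 3′ over the 250 bases before the RefSeq transcription start. For Kdr and Emcn that start lies a few bases inside the gene positions given below, which come from another annotation. Capitals mark AGGAAG, a sequence that ETS factors can bind, or AACAAT, a sequence that SOX factors can bind, on either strand.
Kdr, chr5:75978456-75978705, minus strand: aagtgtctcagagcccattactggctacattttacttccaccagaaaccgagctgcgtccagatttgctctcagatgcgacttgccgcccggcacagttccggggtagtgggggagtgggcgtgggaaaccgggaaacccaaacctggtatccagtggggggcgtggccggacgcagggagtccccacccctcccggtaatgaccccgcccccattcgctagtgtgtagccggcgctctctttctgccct
Flt1, chr5:147726012-147726261, minus strand: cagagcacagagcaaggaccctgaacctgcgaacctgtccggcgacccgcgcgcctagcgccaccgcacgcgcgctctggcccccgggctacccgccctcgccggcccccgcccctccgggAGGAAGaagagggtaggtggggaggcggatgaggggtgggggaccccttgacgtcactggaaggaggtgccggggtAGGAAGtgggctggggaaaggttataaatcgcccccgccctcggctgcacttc
Cldn5, chr16:18776597-18776846, plus strand: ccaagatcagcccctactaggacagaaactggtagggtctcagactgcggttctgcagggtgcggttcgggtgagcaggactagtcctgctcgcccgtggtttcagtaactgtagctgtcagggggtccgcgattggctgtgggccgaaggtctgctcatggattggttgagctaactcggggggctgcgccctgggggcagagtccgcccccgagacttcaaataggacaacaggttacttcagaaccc
Emcn, chr3:137340828-137341077, plus strand: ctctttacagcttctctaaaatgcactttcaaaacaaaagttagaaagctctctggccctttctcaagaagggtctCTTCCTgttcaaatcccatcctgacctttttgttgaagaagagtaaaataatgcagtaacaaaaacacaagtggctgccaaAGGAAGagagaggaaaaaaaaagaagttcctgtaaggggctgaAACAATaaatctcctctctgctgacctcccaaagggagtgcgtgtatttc

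The ETS letters were found in the Flt1 window at 129 and 53 bases before the start, counted to the first base of the match, and in the Emcn window at 174 and 93 bases. The SOX letters were found in the Emcn window alone among these 4, at 50 bases before the start. The windows of Kdr and Cldn5 held neither of these exact strings, and none of the 4 held AGATAA, a sequence that GATA factors can bind. Shorter or variant sites of these factors were not searched for, so a window without capitals may still hold some. The 3 motifs were searched on both strands and no 2 matches overlapped. Of 32851 promoters of the same length, 29.5% held AGGAAG, 9.42% AACAAT and 9.99% AGATAA. Such matches are a description of the letters and do not show binding.

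The members are taken by role, the VEGF receptors first. Kdr (VEGFR2; chromosome 5, 75932827 to 75978458, minus strand), the main signalling receptor for VEGF-A, had normalised read counts (reads divided by 1 factor per library) of 91.7, 109.0 and 90.8 in Control and 322.4, 250.5 and 293.5 in siSirt6. The groups were well apart, with 141.5 counts between the highest Control and the lowest siSirt6 library. The mean went from 97.2 ± 10.3 to 288.8 ± 36.2 (SD, n = 3), a ratio of 2.97 and a log2 fold change of 1.56 (standard error, SE, 0.12). Log2 fold changes are given throughout on the log2(value + 1) scale, and that scale shrinks the changes of low genes.

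Flt1 (VEGFR1; chromosome 5, 147561604 to 147726011, minus strand) binds VEGF-A tightly with weak kinase activity and is also made as a soluble form that traps the ligand. It stood at 1928, 1935 and 2132 in Control and 2552, 2624 and 2495 in siSirt6. The groups did not overlap. Flt1 was the most read member in every library and had the smallest ratio of the 10, 1.28 (log2 0.36, SE 0.038). Its difference of 558.4 counts was nevertheless the largest in absolute terms. Values per gene do not separate the soluble from the membrane form.

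Among the junction genes, Cdh5 (VE-cadherin; chromosome 8, 104101625 to 104144511, plus strand), the adhesion molecule of endothelial adherens junctions, stood at 110.3, 115.9 and 106.2 in Control and 215.6, 267.0 and 276.8 in siSirt6. The Control libraries were close together and the siSirt6 libraries spread more widely, without overlap (110.8 ± 4.84 against 253.1 ± 32.9, SD, n = 3). The ratio was 2.28 and the log2 fold change 1.18 (SE 0.118).

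Cldn5 (chromosome 16, 18776847 to 18778262, plus strand), the main claudin of endothelial tight junctions, stood at 9.76, 18.5 and 8.69 in Control and 98.9, 67.0 and 55.2 in siSirt6. The groups were far apart, with siSirt6 replicate 1 well above the other siSirt6 libraries. It had the highest ratio of the 10, at 5.98, and a log2 fold change of 2.52 (SE 0.287). The ratio rests on 38 reads over the Control libraries and 218 over the siSirt6 libraries, which gives an exact 95% interval of 4.25 to 8.74 for counting error alone. The siSirt6 libraries spread more than counting gives, with an SD of 22.6 where counting alone predicts 8.67. Without Control replicate 2, the highest Control library, the ratio was 7.99.

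**Figure D1:**
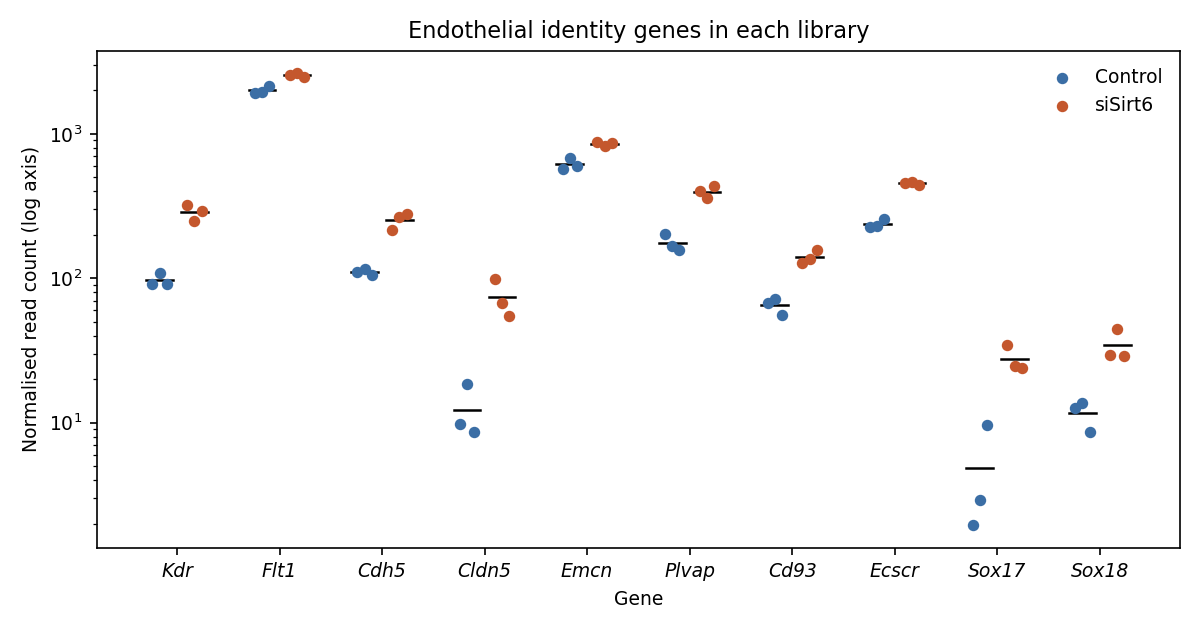
Normalised read count (vertical, log axis) of each endothelial identity gene (horizontal) in the 3 Control libraries (blue points) and the 3 siSirt6 libraries (orange points); black lines are group means. For all 10 genes the lowest siSirt6 point lies above the highest Control point; Flt1 is highest in level and Sox17 lowest.

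Of the surface proteins, Emcn (endomucin; chromosome 3, 137341067 to 137432185, plus strand), a sialomucin of capillary and venous endothelium, stood at 570.8, 677.7 and 603.6 in Control and 881.0, 827.8 and 859.6 in siSirt6. The groups did not overlap, and the ratio of 1.39 (log2 0.47, SE 0.061) was the lowest but for that of Flt1. Plvap (chromosome 8, 71497765 to 71511752, minus strand), which forms the diaphragms of endothelial fenestrae and caveolae, stood at 203.0, 167.5 and 156.5 in Control and 399.5, 360.8 and 436.0 in siSirt6, a ratio of 2.27 (log2 1.18, SE 0.101). Fenestrae are pores of capillary endothelium; every siSirt6 library was far above the highest Control library.

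Cd93 (chromosome 2, 148436640 to 148443563, minus strand), a C-type lectin-like receptor of endothelial and some myeloid cells, stood at 67.3, 72.0 and 56.0 in Control and 127.6, 136.1 and 157.1 in siSirt6. The groups did not overlap, the ratio was 2.15 and the log2 fold change 1.10 (SE 0.152). Ecscr (chromosome 18, 35713086 to 35722356, minus strand), a small membrane protein of endothelial cells involved in their migration, stood at 227.4, 230.8 and 255.9 in Control and 454.9, 463.9 and 441.3 in siSirt6. The siSirt6 libraries were close together, with an SD of 11.4 where counting alone predicts 21.5, and well above Control. The ratio was 1.90 (log2 0.93, SE 0.082). An annotated gene on the opposite strand, 1700066B19Rik, shares exon sequence with Ecscr. 1700066B19Rik is not among the listed genes. The libraries were made with a stranded kit, but the sources used here do not say whether reads were counted by strand. The reads of the pair may therefore not be told apart.

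Sox17 (chromosome 1, 4490931 to 4497354, minus strand), a SOXF factor of arterial endothelium, was the lowest member, at 1.95, 2.92 and 9.66 in Control and 34.6, 24.7 and 23.9 in siSirt6. These were 2, 3 and 10 reads against 35, 24 and 23, so the groups did not overlap but Control replicate 3 stood above the other Control libraries. The ratio was 5.73, with an exact 95% interval of 3.28 to 10.7 for counting error alone, and the log2 fold change 2.51 (SE 0.441). A single library weighed heavily: without Control replicate 3 the ratio was 11.4 and the log2 fold change 3.06. Sox17 shares exon sequence with Gm37587, a transcript on the opposite strand that is not among the listed genes either. The few reads of Sox17 carry the same doubt as those of Ecscr.

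Sox18 (chromosome 2, 181669836 to 181671640, minus strand), a SOXF factor needed for blood and lymph vessel development, stood at 12.7, 13.6 and 8.69 in Control and 29.7, 44.3 and 29.1 in siSirt6. The groups did not overlap, and siSirt6 replicate 2 was the highest library. The ratio was 2.95, with an exact 95% interval of 1.99 to 4.44 for counting error alone, and the log2 fold change 1.48 (SE 0.314). A gene was tested only where 3 or more libraries reached a value of 10. Cldn5, Sox17 and Sox18 did not meet this by their Control libraries alone: 1 Control library reached it for Cldn5, 2 for Sox18 and none for Sox17, so Sox17 had to be higher in siSirt6 to be tested at all.

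Low genes are in the tables almost only with large differences. Among the 862 genes tested with a mean under 100 counts over all libraries, 4.41% had an absolute log2 fold change under 0.5, against 85.4% of the 2808 genes with a mean of 1000 or more. The large ratios of Cldn5, Sox17 and Sox18 come from that low band, where genes with higher values in siSirt6 had a median log2 fold change of 0.99. Kdr, Cdh5, Plvap, Cd93, Ecscr and Emcn lie between 100 and 1000, where the same median was 0.38, and Flt1 lies above, where it was 0.28. The members were chosen for their higher values, so nothing is read from their changes against these medians. The low band pools all means under 100 and is not matched to the level of any member.

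**Figure D2:**
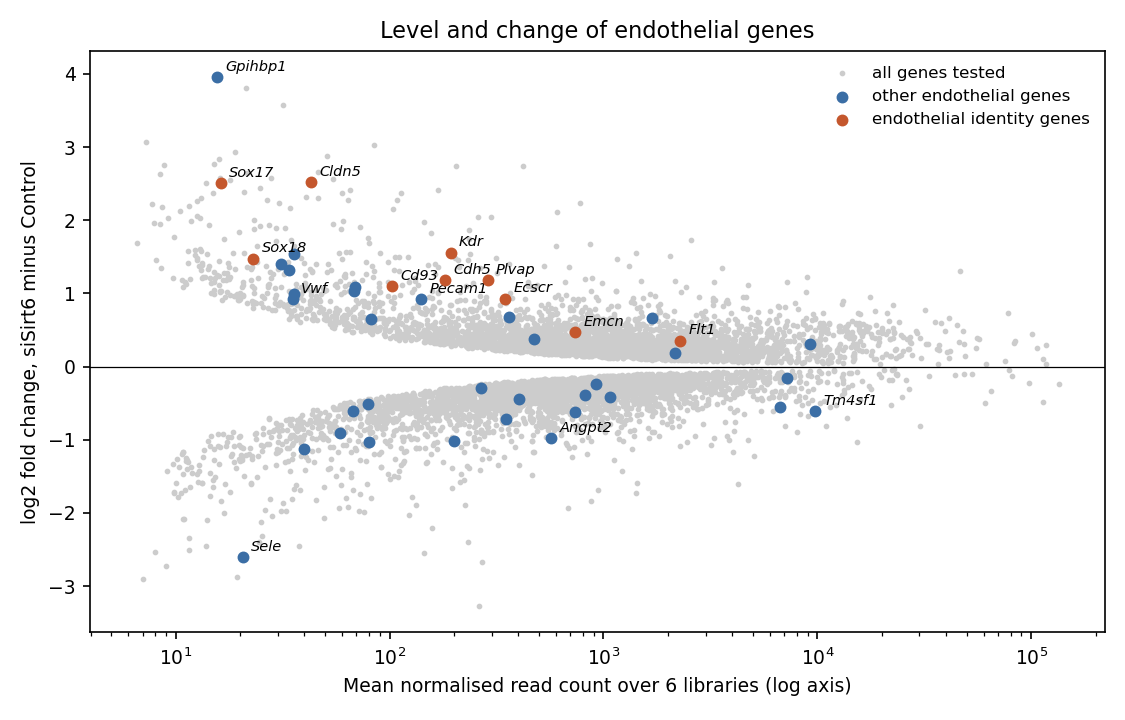
Log2 fold change on the log2(value + 1) scale (vertical) against mean normalised read count over the 6 libraries (horizontal, log axis) for the endothelial identity genes (orange), the other endothelial genes tested (blue) and all 7179 genes tested (grey). The empty wedge around 0 shows that low genes are in the tables almost only with large differences; all orange points are above 0 and blue points lie on both sides.

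Added up, the 10 genes took 3223, 3342 and 3429 normalised reads in Control and 5116, 5066 and 5067 in siSirt6. The sum was 3331 ± 103 and 5083 ± 28.7 (SD, n = 3), a ratio of 1.53. Flt1 made up 60.0% ± 2.16 of it in Control and 50.3% ± 1.33 in siSirt6. Without Flt1 the remaining 9 genes went from 1333 ± 64.9 to 2526 ± 73.0, a ratio of 1.90. No siSirt6 library led throughout: replicate 1 was the highest of its group for 4 genes, replicate 2 for 3 and replicate 3 for 3. In Control, replicate 2 was the highest for 6 genes and the lowest for none.

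Levels between genes were compared per kilobase of the longest annotated transcript. In Control, Flt1 led at 289.8 ± 16.8 normalised reads per kb (SD, n = 3), followed by Ecscr at 213.7 ± 14.0, Emcn at 175.3 ± 15.5, Plvap at 88.4 ± 12.2, Cdh5 at 27.7 ± 1.21 and Kdr at 16.4 ± 1.74. Cd93, Cldn5 and Sox18 came next, between 7.20 and 9.75, with neighbours that overlapped over their libraries, and Sox17 was last at 1.49 ± 1.29. In siSirt6, Ecscr stood above Flt1 (406.9 ± 10.2 against 370.8 ± 9.38 reads per kb), and their libraries did not overlap. Cldn5 moved from the eighth place to the sixth at 52.0 ± 15.97, where it overlapped both Cdh5 and Kdr. Acta2 stood far above all of them, at 28626 reads per kb in Control and 47585 in siSirt6. Among all listed genes with a length, Flt1 lay at the 60.0th percentile of the Control level per kb and Kdr at the 8.78th.

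**Figure D3:**
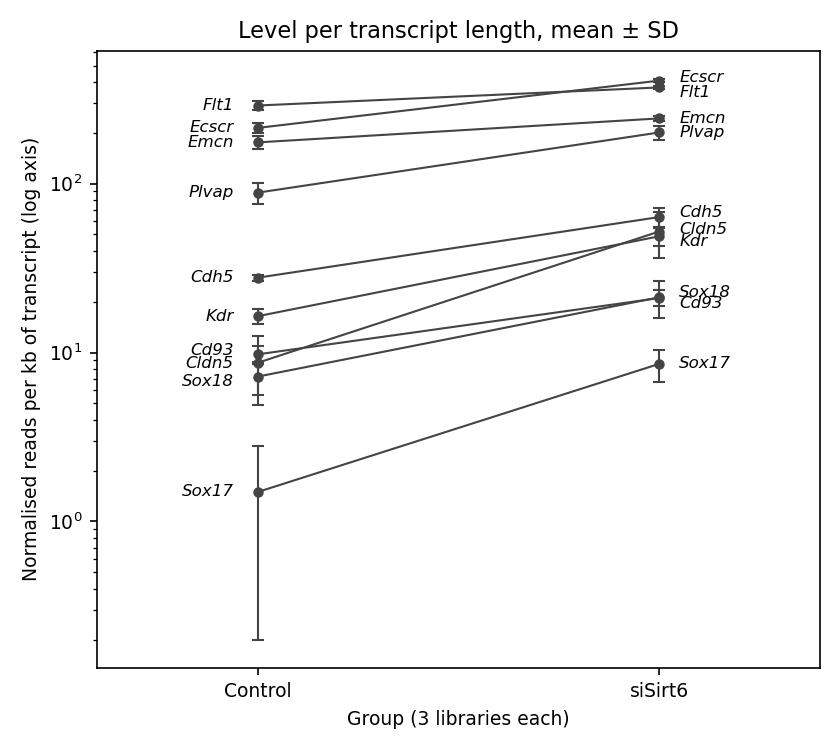
Normalised reads per kilobase of the longest annotated transcript (vertical, log axis) for each endothelial identity gene in Control and siSirt6 (horizontal); points are means and bars the SD of 3 libraries. Ecscr passes Flt1, from 213.7 to 406.9 against 289.8 to 370.8, and the lines of Cldn5 and Sox17 are the steepest.

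Members were not alike in length or base composition. Transcripts ranged from 1114 nt for Ecscr to 6895 nt for Flt1, against a median of 3335 nt over the listed genes, and 5 of the 10 were longer than that median. Cldn5, Plvap and Sox18 were rich in G and C (60.5%, 60.6% and 60.9%), and Emcn was poor in them (40.7%). In these tables the log2 fold change followed transcript length and GC content, and the smooth trend fitted over all genes ran from 0.35 at Ecscr down to -0.29 at Cd93. When that trend was removed, the long Flt1, Kdr and Cd93 had larger log2 fold changes (0.62, 1.80 and 1.39) and the short Ecscr and Plvap smaller ones (0.58 and 0.97). All 10 stayed above 0, between 0.58 and 2.48. The members were chosen for their higher values, so this is no support for the direction.

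**Figure D4:**
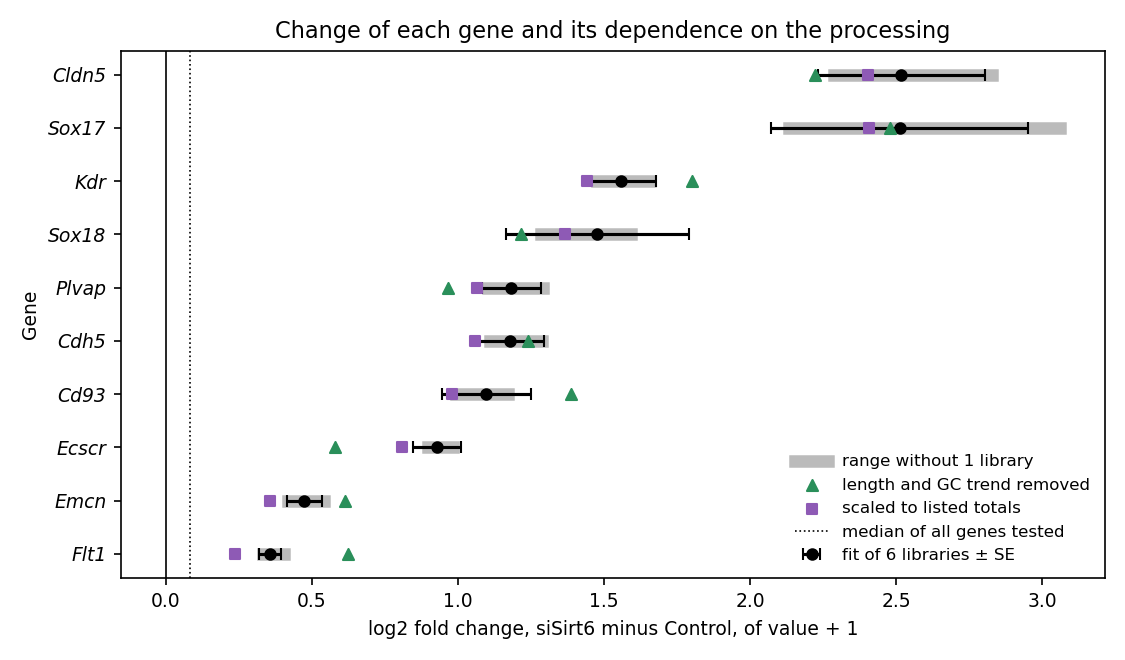
Log2 fold change of siSirt6 against Control on the log2(value + 1) scale (horizontal) for each endothelial identity gene (vertical). Black points with bars are the fit of 6 libraries ± SE, grey bands the range when 1 library is left out, green triangles the fit with the length and GC trend removed and purple squares the fit with libraries scaled to listed totals; the dotted line is the median of all genes tested, 0.08, and every symbol lies to its right.

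Other endothelial genes were divided. Of a list of 67, 35 were in the tables and 33 were tested: 15 rose and 18 fell by limma with Benjamini-Hochberg adjustment, and the median log2 fold change was -0.23 against 0.08 over all genes tested. With the length and GC trend removed these medians were -0.07 and -0.000557. The share that rose, 45.5%, is close to the 50.5% of all genes tested. Among the 4 with the smallest p, the water channel gene Aqp1 rose from 8261 ± 49.97 to 10208 ± 132 (SD, n = 3), whereas Tm4sf1, a membrane protein of endothelial and many other cells, fell from 11786 ± 109 to 7737 ± 141. Heg1, a receptor of endothelial junctions, fell from 7937 ± 97.4 to 5393 ± 58.5. Angpt2, a ligand of the TIE2 receptor, fell from 753.7 ± 17.4 to 383.2 ± 8.47. When only genes averaging 5 CPM or more were tested, 21 of these were left, of which 7 rose and 14 fell.

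Several genes of that list rose. The following were picked after their values were seen and are not independent support. Pecam1 (CD31), an adhesion molecule of endothelial cells and leukocytes, stood at 95.6, 83.7 and 111.1 in Control and 204.7, 168.0 and 178.0 in siSirt6, a ratio of 1.90 (limma adjusted p = 2.09e-07). Vwf, the clotting factor carrier stored in endothelial cells, stood at 30.2, 18.5 and 24.1 in Control and 47.5, 41.2 and 49.95 in siSirt6 (limma adjusted p = 0.00101). The orphan TIE receptor gene Tie1 rose 2.02-fold, the junction protein Esam 2.14-fold, Icam2 3.03-fold and the nitric oxide synthase gene Nos3 2.44-fold. Gpihbp1, which anchors lipoprotein lipase to capillary endothelium, stood at 2.93, 0 and 0.97 in Control and 34.6, 26.8 and 28.1 in siSirt6.

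Other genes known from endothelial cells fell. Sele (E-selectin), which appears on inflamed endothelium, stood at 41.0, 40.9 and 26.1 in Control and 3.96, 4.12 and 7.28 in siSirt6 (limma adjusted p = 1.53e-07). These genes too were picked after their values were seen. The peptide ligand Apln fell to 0.496 of its Control level and the ETS factor Fli1 to 0.652, both by the same limma test. Picked in the same way, Cd34 fell to 0.735, Thbd to 0.750, Calcrl to 0.611, Adgrf5 to 0.484 and Bmx to 0.456. Of the 15 tested genes of the list with a mean under 100 counts, 9 rose and 6 fell, and of the 18 with a mean of 100 or more, 6 rose and 12 fell. Over all genes tested, 49.0% rose in the lower band and 50.7% in the upper. The difference between these splits was not tested. Tek, Eng, Erg and Sox7 were among the 32 genes of the list absent from the tables, so their change is unknown.

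Partners of the members in their pathways were counted by list, beside the 50.5% of all genes tested that rose. VEGF ligands and co-receptors had 7 of 10 genes tested, of which 3 rose and 4 fell (median log2 fold change -0.18, or -0.02 with the length and GC trend removed). Vegfd, a ligand of VEGFR3 in the mouse, fell to 0.571 of its Control level (13931 ± 68.2 against 7950 ± 115, SD, n = 3; limma adjusted p = 1.00e-26). The co-receptor Nrp1 fell to 0.683 of its Control level, whereas Vegfc rose 1.29-fold and the syndecan Sdc2 1.14-fold. In VEGF receptor signalling, 20 of 28 genes were tested: 7 rose and 13 fell (median -0.19); without the trend the median was -0.03 and 9 of the 20 were above 0. The small heat shock protein gene Hspb1 rose 1.55-fold, the kinase genes Map2k2 1.32-fold and Akt1 1.18-fold, and the PI3-kinase regulatory subunit Pik3r1 fell to 0.633.

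Among partners of the junction genes, 16 of 24 were tested, and 9 rose and 7 fell (median 0.07, or -0.05 with libraries scaled to listed totals). Cldn1, a claudin of epithelia, fell from 316.1 ± 35.7 to 113.4 ± 11.7 (SD, n = 3), a ratio of 0.359, opposite to Cldn5. Beta-catenin Ctnnb1, which binds the tail of cadherins, fell to 0.786 and Cdh11 to 0.676, while the adhesion molecule Nectin2 rose 1.76-fold. Of 34 endothelial transcription factors and ETS family genes, 18 were tested, and 4 rose and 14 fell (median -0.32, or -0.16 with the trend removed), where 49.3% of all genes tested fell. There Mef2a, Foxc1, Nr2f2, which specifies veins, and Rbpj, the DNA-binding partner of Notch, fell to 0.622, 0.564, 0.614 and 0.708.

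**Figure D5:**
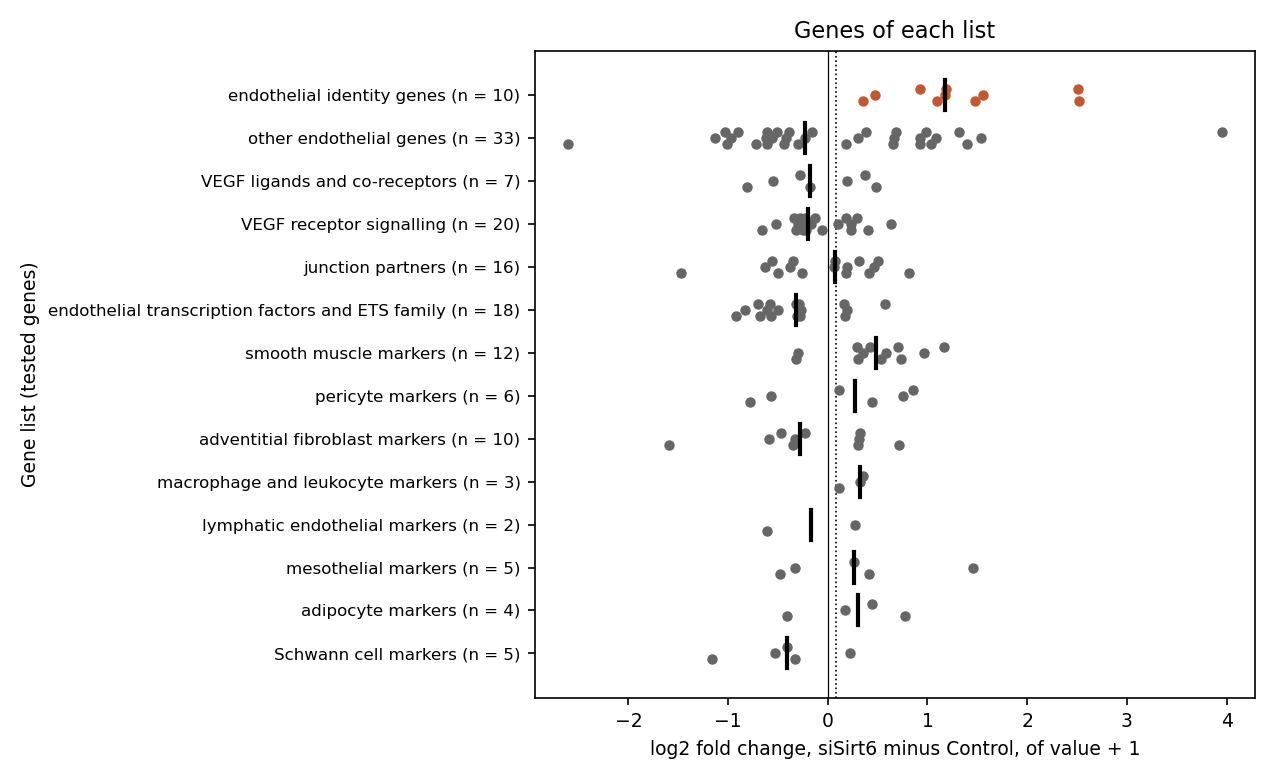
Log2 fold change on the log2(value + 1) scale (horizontal) of the tested genes of each list (vertical); each point is a gene, black bars are list medians and the dotted line is the median of all genes tested. Endothelial identity genes (orange) were chosen for their change and lie above 0 throughout; the other endothelial genes lie on both sides, with a median of -0.23, or -0.07 with the length and GC trend removed.

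Markers of other cell types that such a culture could hold are given as lists, side by side with the members; of all genes tested, 50.5% rose and 49.3% fell. Smooth muscle markers were higher in 10 of 12 tested cases and lower in 2, and their summed level went from between 109327 and 109927 in Control to between 164746 and 166854 in siSirt6; Acta2 rose 1.66-fold and Cald1 1.24-fold. Pericyte markers rose in 4 of 6 cases, with sums between 20099 and 20391 in Control and between 22206 and 22479 in siSirt6; Cspg4 rose 1.69-fold, and Pdgfrb rose 1.08-fold but was at a log2 fold change of -0.01 with listed totals. Adventitial fibroblast markers rose in 4 of 10 cases and fell in 6, with sums between 102115 and 103266 in Control and between 85453 and 86952 in siSirt6; Gsn fell to 0.797, and Ly6a rose 1.24-fold but was at -0.07 without the length and GC trend.

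Of 16 macrophage and leukocyte markers, 3 were in the tables and all 3 rose, with sums between 1777 and 1822 in Control and between 1978 and 2018 in siSirt6; C1qb rose 1.26-fold and Lyz2 1.08-fold, but without the trend these were at -0.04 and -0.18, and Lyz2 was at -0.01 with listed totals. Lymphatic endothelial markers had 2 of 7 genes in the tables, and these moved apart: Lyve1 fell to 0.657 of its Control level and Pdpn rose 1.21-fold. The sum of these 2 was between 4709 and 4874 in Control and between 5399 and 5597 in siSirt6. Most of it was Pdpn, with a Control mean of 4221 beside 550.7 for Lyve1. No marker of these lists was at 0 in any library among those in the tables.

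Mesothelial markers rose in 3 of 5 tested cases, with sums between 2172 and 2217 in Control and between 2499 and 2619 in siSirt6; Upk1b rose 1.203-fold and Msln 1.34-fold. Adipocyte markers rose in 3 of 4 cases, with sums between 1872 and 1975 in Control and between 2216 and 2300 in siSirt6; Adipoq rose 1.36-fold, and Cidec rose 1.13-fold but was at -0.09 without the trend. Schwann cell markers fell in 4 of 5 cases, with sums between 9610 and 9904 in Control and between 10609 and 10993 in siSirt6. Most of that sum was Pmp22, with a Control mean of 8455, which rose 1.17-fold, while Cnp fell to 0.794. The summed ratios of the marker lists lay between 0.838 for fibroblasts and 1.51 for smooth muscle, beside 1.53 for the endothelial identity genes and 1.90 for these without Flt1. Acta2, with a Control mean of 58253, made up most of the smooth muscle sum. By median log2 fold change, smooth muscle markers were at 0.48 and the members, chosen for their higher values, at 1.18. The part of cell composition in the members' difference was not tested.

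The genes with the profile most like the members' were sought over the 6 libraries. Likeness was the root mean square distance, on the log2(value + 1) scale, between a gene's profile centred on its own mean and the average of the members' centred profiles. Such a profile is mostly the group difference, so the search finds genes with a difference of like size and little spread. Shared regulation was not tested. Among the nearest were Mylk2 at 0.045, Zfp296 at 0.052, Uchl1 at 0.067 and Hspb7 at 0.068. The members themselves lay between 0.157 for Kdr and 0.822 for Sox17 from their own average. Mylk2, a myosin light chain kinase of skeletal muscle, went from 82.9 ± 5.36 to 218.0 ± 12.1 (SD, n = 3).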

How the data were processed

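RNA sequencing was measured in 3 Control and 3 siSirt6 libraries, made from total RNA with a stranded mRNA kit per the labels' protocols. Trimmomatic, HISAT2, HTSeq and Cufflinks, and the build mm10, are named in the submitters' processing notes without roles. The signal deposited by the authors is a read number divided by 1 factor for each library: 100% of values came out as whole reads, within 0.01. The sources used here do not say how the authors obtained the factors or selected the genes.

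Limma 3.58.1 in R 4.3.3 (trend, robust, 2-sided) compared the groups on log2(value + 1) over the 7179 genes that reached 10 in 3 or more libraries, with Benjamini-Hochberg adjustment at 0.05. The fit was tested on simulated data in which most genes were left unchanged, unlike the genes listed here. Alternatives were pseudocounts, filters, scalings, a length and GC trend, a replicate block, all 55450 annotated genes, leaving out each library, and edgeR 4.0.16 and DESeq2 1.42.0 on recovered reads of 5 libraries; siSirt6 replicate 1 was left out of these because an automatic check did not accept its step, which is close to 1. Positions and lengths came from GENCODE vM21 (GRCm38), with 7331 of 7384 identifiers matched.

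Genes named by rule are the members, Sirt6, the 4 smallest p of each pathway list, the 2 most abundant of each marker list and the 5 nearest profiles, of which 1 is not reported here; others are said to be chosen after their values were seen. Members and lists were chosen with earlier results of these data known. The depth of whole libraries is unknown.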

Additional observations from a re-analysis of the deposited data

How the results depend on the processing

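All 10 members stayed above 0 in every alternative run, and Cldn5, Sox17 and Sox18 had no value under the filter of a mean of 5 CPM. Each siSirt6 value of a member lay above each Control value, so leaving out a library or changing the pseudocount could not turn a sign. The members were also chosen for their higher values in these libraries. None of the alternative runs, whatever the scaling or test, therefore gives support for the direction, only the range of sizes. Scaling to listed totals shifted the median of all genes tested by -0.119, to -0.034; it gave the members a median log2 fold change of 1.06 in place of 1.18 and a summed ratio of 1.41 in place of 1.53, and Flt1 was lowest there at 0.24. The filter of 5 CPM left 7 other endothelial genes higher in place of 15, among 21 tested. Without 1 library the members' median lay between 1.11 and 1.23, the summed ratio between 1.501 and 1.548, and the other endothelial genes between 14 and 15 higher and 17 and 18 lower. Deviations from the group means correlated at -0.019, 0.027 and -0.001 between same-numbered libraries. Values this near 0 cannot show whether these libraries were paired, since a small shared effect would give them too. A replicate block gave 3629 genes as higher and 3540 as lower, in place of 3624 and 3542, and a median of 1.18 for the members. Over all genes tested, the trend removal gave the lowest counts, 2644 higher and 2556 lower; on recovered reads edgeR called 3407 higher and 3518 lower and DESeq2 2945 and 3293. Adgrl4 had a limma adjusted p of 0.0128 over all libraries. It lost its call without Control replicate 3 (0.0957), by DESeq2 (0.189) and over all annotated genes (0.0991). Clec14a lost its limma call without siSirt6 replicate 3 (0.0699), with the trend removed (0.122) and over all annotated genes (0.0579). Tfpi lost it with listed totals (0.0732), Plxnd1 and Procr with the trend removed (0.209 and 0.123), and Ramp2 by DESeq2 (0.077). Reads of the low members limit their precision, as their counting intervals show; these cover counting error only.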
